A study of Homo sapiens with 4 samples.

Results

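The genes examined were 9 of the kinase machinery that drives mitosis, out of 23615 genes in the table. They were chosen by name: the Aurora kinases AURKA and AURKB, the AURKA activator TPX2, the passenger complex subunits INCENP, CDCA8 and BIRC5, the Polo-like kinase PLK1, its activator BORA, and AURKAIP1. The choice was made with earlier results of these data known. All 9 were found under these symbols, and all 9 passed the filter on low counts that left 11761 genes for testing. RNA-seq was made from K562, a long-established human leukaemia cell line that carries the BCR-ABL1 fusion and has erythroid features. In 2 samples the cells had received 5 µM clofarabine, dissolved so that the medium held 0.005% DMSO, and in 2 samples DMSO, each for 3 h. Clofarabine is a deoxyadenosine analogue that inhibits ribonucleotide reductase and DNA synthesis. The deposited table marks the treatment by the letters C and V and the library by 0 or 1. C was taken for clofarabine and V for vehicle (DMSO), and the libraries are C0 and C1 for clofarabine and V0 and V1 for DMSO. All directions would reverse under the opposite reading of the letters.

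Aurora A, the product of AURKA, works at centrosomes and spindle poles, where TPX2 binds and activates it on microtubules. With the cofactor Bora it phosphorylates PLK1 before mitosis, and PLK1 in turn promotes activation of cyclin B with CDK1, centrosome maturation and cytokinesis. Aurora B is the enzyme of the chromosomal passenger complex, in which INCENP is the scaffold and borealin (CDCA8) and survivin (BIRC5) bring the complex to the inner centromere, where it corrects faulty kinetochore attachments. The transcripts of most of these genes are known to be low in G1 and to accumulate in G2 and mitosis. AURKAIP1 was named for binding Aurora A and promoting its degradation, and its protein is also a component of the mitochondrial ribosome.

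Libraries held between 8370550 and 23888755 fragments. No label states that the samples are separate cultures, and a p-value here therefore reflects only how far these samples differ among themselves, possibly for technical reasons. The K562 markers GATA1, TAL1, KLF1, HBG1, HBG2, HBE1, TFRC and LMO2 were present in all libraries, with a summed level of 22650 and 26950 CPM (fragment counts scaled by library size) in the clofarabine libraries and 23120 and 24580 CPM in the DMSO libraries. HBE1, the embryonic epsilon globin, made up most of that sum, at 13270 and 16020 CPM in clofarabine and 13190 and 13520 CPM in DMSO. GATA1, the erythroid transcription factor, was itself called as lower, at 179.7 and 197 CPM in clofarabine and 227 and 222 CPM in DMSO (log2 fold change −0.25, edgeR adjusted p = 0.0445). Markers of other cell types summed to between 74.4 and 77.5 CPM in clofarabine and between 72.4 and 75.5 CPM in DMSO. Nearly all of that sum was EPCAM, an epithelial adhesion molecule, at between 70.8 and 75.2 CPM. MS4A1 was at 0 in every library, and CD3E, CD79A, CD14, COL1A1 and ALB were at most at 1.73 CPM. Library C1 stood above C0 in short transcripts, with a median log2 difference of 0.14 in the shortest of 10 equal classes of transcript length and −0.088 in the longest. AURKAIP1 was in class 1, the shortest, and AURKB in class 2, where the median difference was 0.077, while the other members lay in classes 4 to 8.

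After 3 h of clofarabine 7 of the 9 transcripts fell, none rose and 2 were not called. A gene was called where the Benjamini-Hochberg adjusted p over all tested genes, from edgeR's quasi-likelihood test, was under 0.05. That rule called 1.03% of all tested genes as lower and 1.54% as higher. AURKA, PLK1, CDCA8 and INCENP fell by at least 1.5-fold, a size reached by 4 of the 9 members and by 0.408% of all tested genes. TPX2, AURKB and BIRC5 fell by less. DESeq2 called 5 members as lower, with 0.77% of tested genes lower by that rule. Also 5 were called on the log2(FPKM + 1) scale (0.315% of tested genes lower), on the log2(FPKM + 0.1) scale (0.383%) and without library V1 (0.604%), and the members lost each time were AURKB and BIRC5. The median log2 fold change of the members was −0.51, beside 0.0020 over all tested genes. In 8 of the 9 members both clofarabine libraries lay below both DMSO libraries, which held for 21.3% of all tested genes. These are bulk libraries, in which fewer cells in G2 or mitosis and less of these RNAs per cell cannot be told apart.

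**Figure D1:**
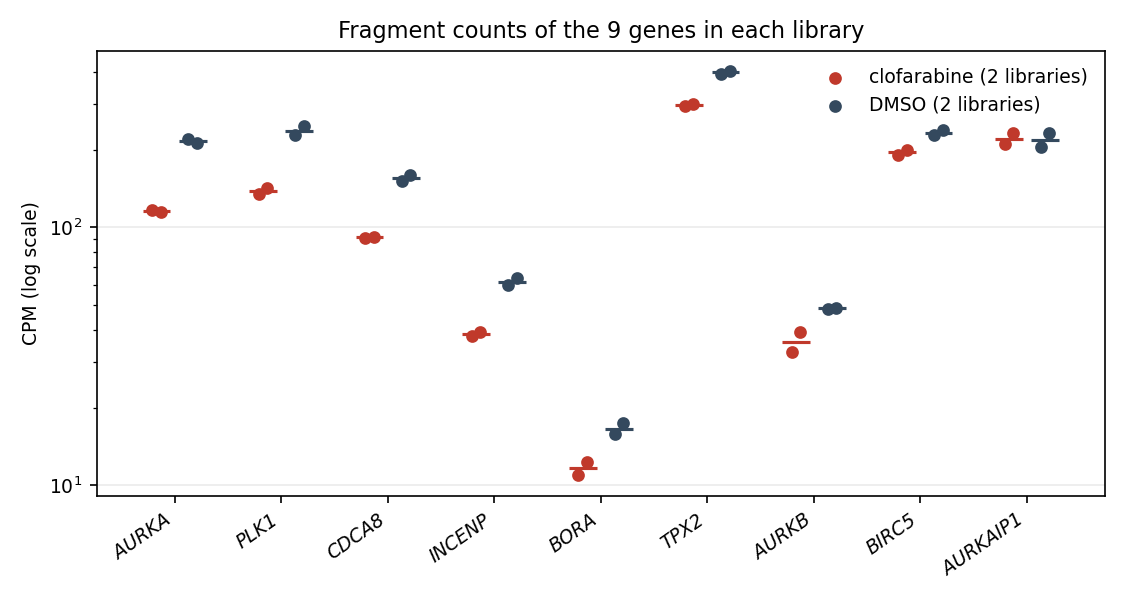
Fragment counts of the 9 genes in each library, in CPM on a log axis, with clofarabine libraries in red at the left and DMSO libraries in dark blue at the right of each pair and a line at each mean. The genes run from the lowest log2 fold change (AURKA) to the highest (AURKAIP1), and the groups overlap in AURKAIP1 only.

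The promoters are shown because many genes of G2 and mitosis are known to be repressed in G1 through a cell cycle genes homology region (CHR), which the DREAM complex binds, often next to CCAAT boxes bound by NF-Y. RefSeq promoter windows (build GRCh38.p14, from 250 bases before to 50 after the annotated start) were matched for 6 of the 9 members, namely AURKB, INCENP, CDCA8, PLK1, BORA and AURKAIP1. There was no match for AURKA, BIRC5 and TPX2. The bases just before the start are printed 5′ to 3′ on the gene's strand, with matches to TTTGAA or TTCGAA (the CHR) and to CCAAT in capitals on either strand, so that a CCAAT on the opposite strand reads ATTGG. PLK1 is at chr16:23678759-23678888 (plus strand), CDCA8 at chr1:37692386-37692515 (plus), INCENP at chr11:62123881-62124010 (plus), BORA at chr13:72727743-72727922 (plus), AURKB at chr17:8210250-8210379 (minus, from the more upstream of 2 annotated starts) and AURKAIP1 at chr1:1375208-1375337 (minus).
PLK1: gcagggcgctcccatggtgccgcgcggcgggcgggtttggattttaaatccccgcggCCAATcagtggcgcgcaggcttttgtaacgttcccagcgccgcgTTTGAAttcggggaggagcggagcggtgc
CDCA8: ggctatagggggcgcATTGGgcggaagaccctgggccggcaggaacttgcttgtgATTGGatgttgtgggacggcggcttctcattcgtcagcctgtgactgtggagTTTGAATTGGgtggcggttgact
INCENP: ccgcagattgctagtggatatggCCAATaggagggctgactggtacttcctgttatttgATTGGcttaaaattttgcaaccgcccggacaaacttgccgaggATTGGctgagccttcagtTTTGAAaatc
BORA: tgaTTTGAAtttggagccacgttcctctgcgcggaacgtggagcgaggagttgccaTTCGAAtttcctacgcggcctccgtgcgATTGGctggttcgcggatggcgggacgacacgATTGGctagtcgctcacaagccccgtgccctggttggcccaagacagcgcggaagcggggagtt
AURKB: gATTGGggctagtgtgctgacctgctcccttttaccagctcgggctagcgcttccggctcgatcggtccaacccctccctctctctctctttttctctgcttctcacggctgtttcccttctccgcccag
AURKAIP1: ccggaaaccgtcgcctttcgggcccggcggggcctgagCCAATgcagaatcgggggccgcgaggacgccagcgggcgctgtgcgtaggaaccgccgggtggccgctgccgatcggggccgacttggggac

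With −1 as the base before the start, a CHR match began at −29 in PLK1, at −23 in CDCA8 and at −10 in INCENP, each with at least 1 CCAAT match upstream of it. In CDCA8 the CHR match shares its last base with the nearest ATTGG. BORA held CHR matches farther out, beginning at −177 and −124, and both lay upstream of its CCAAT matches. AURKB and AURKAIP1 held a CCAAT match and no CHR match. Each of the 6 members thus held a CCAAT match and 4 a CHR match, and of the 4 matched members that fell 3 held a CHR match. Over genes, a CHR match stood in 49.0% of the 98 matched genes called as lower, in 10.0% of the 140 matched genes called as higher and in 15.2% of the 8639 matched genes tested. A CCAAT match stood in 64.3% of those lower, in 47.9% of those higher and in 43.8% of those tested. An E2F motif (TTTCCCGC or TTTGGCGC, either strand) stood in 0 of the 6 members, in 2.04% of the lower genes, in 14.3% of the higher genes and in 4.78% of the tested genes. Of all 35116 windows 16.4% held a CHR match, 34.6% a CCAAT match and 2.27% an E2F motif. A match of letters is a description of the window and not evidence of binding. Only the letters given here were searched, so a window without a match is not shown to lack the element.

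**Figure D2:**
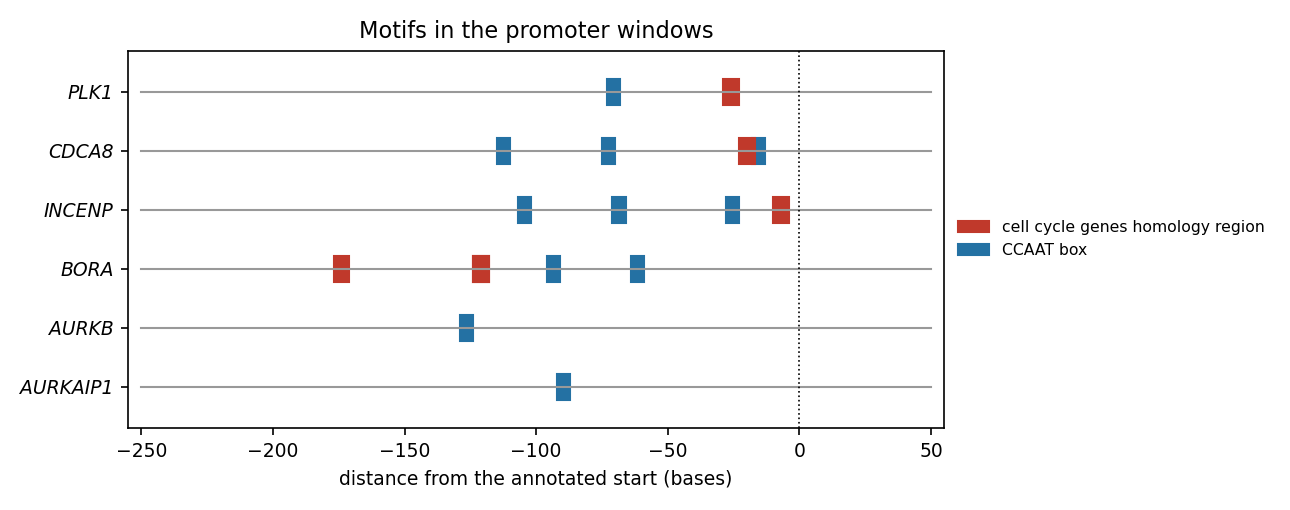
Positions of CHR matches (red) and CCAAT matches (blue) in the promoter windows of 6 members, by distance in bases from the annotated start at the dotted line; for AURKB the more upstream of 2 annotated starts is drawn. PLK1, CDCA8 and INCENP have a CHR match at −29, −23 and −10, BORA has CHR matches at −177 and −124, and AURKB and AURKAIP1 have CCAAT matches only.

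AURKA, the kinase of centrosome maturation and spindle assembly, had the deepest fall of the members. It stood at 117 CPM in C0 and 115 CPM in C1, against 220.0 CPM in V0 and 213 CPM in V1. Both clofarabine libraries were close to each other and far below the DMSO libraries, at 53.5% of the DMSO mean. The log2 fold change was −0.90 (SE 0.067, 95% interval −1.04 to −0.76, edgeR adjusted p = 2.88e-08). Among the 11761 tested genes its p was the 2nd smallest. AURKAPS1, an AURKA pseudogene that could take fragments from it, stood at 3.39 and 3.07 CPM in clofarabine and 3.77 and 3.30 CPM in DMSO. How fragments were shared between AURKA and AURKAPS1 was not tested.

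TPX2, which activates Aurora A and targets it to spindle microtubules, had more fragments than any other member and a smaller change than AURKA. It stood at 295 CPM in C0 and 301 CPM in C1, against 394 CPM in V0 and 404 CPM in V1. The groups did not overlap, and the log2 fold change was −0.42 (SE 0.064, 95% interval −0.55 to −0.29, edgeR adjusted p = 3.73e-04). That interval does not meet the interval of AURKA. The log2 ratio of AURKA to TPX2 in CPM was −1.34 in C0 and −1.39 in C1, against −0.84 in V0 and −0.93 in V1, a difference of −0.48. For this and the other 6 ratios of members an exact two-sided permutation test of 2 against 2 libraries gave p = 0.333, the smallest it can give, and the 7 ratios share libraries and genes.

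PLK1, the Polo-like kinase of mitotic entry and cytokinesis, fell nearly as far as AURKA. Its level was 135 CPM in C0 and 143 CPM in C1, against 228 CPM in V0 and 246 CPM in V1. The clofarabine libraries lay at 58.6% of the DMSO mean, with no overlap. The log2 fold change was −0.77 (SE 0.068, 95% interval −0.91 to −0.63, edgeR adjusted p = 3.11e-07). The log2 ratio of PLK1 to AURKA was 0.21 in C0 and 0.32 in C1, against 0.051 in V0 and 0.21 in V1, so that C0 and V1 were nearly equal. The difference of 0.13 between the groups was smaller than the gap of 0.16 between V0 and V1. PLK1 overlaps ERN2 in RefSeq, a gene at 0 CPM in C0 and C1, 0.24 CPM in V0 and 0.18 CPM in V1.

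BORA, which exposes the activation loop of PLK1 to Aurora A, was the member with the fewest fragments and was not called. It stood at 10.9 CPM in C0 and 12.3 CPM in C1, against 15.8 CPM in V0 and 17.4 CPM in V1. The groups did not overlap and the mean was 70.1% of that in DMSO, but the error was wide, the log2 fold change being −0.51 (SE 0.15, 95% interval −0.82 to −0.19, edgeR adjusted p = 0.0825). With libraries scaled by size alone its adjusted p was 0.0383, and across the 13 alternatives it lay between 0.0193 and 0.538, with 4 of them calling BORA as lower. BORA overlaps DIS3 in RefSeq, an exosome nuclease gene at 91.6 and 82.0 CPM in clofarabine and 79.5 and 72.4 CPM in DMSO, and no source used here states whether the authors counted by strand. DIS3 was not called and had a log2 fold change of 0.19.

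The subunits of the chromosomal passenger complex all fell, but by different amounts. CDCA8, which encodes borealin, stood at 91.1 CPM in C0 and 91.7 CPM in C1, against 151 CPM in V0 and 159.6 CPM in V1. The clofarabine libraries differed by less than 1 CPM and lay at 58.9% of the DMSO mean, with a log2 fold change of −0.76 (SE 0.071, 95% interval −0.91 to −0.62, edgeR adjusted p = 5.96e-07). INCENP, the scaffold that binds and activates Aurora B, stood at 37.8 CPM in C0 and 39.5 CPM in C1, against 59.8 CPM in V0 and 63.4 CPM in V1. It too showed no overlap, and its log2 fold change was −0.67 (SE 0.089, 95% interval −0.86 to −0.49, edgeR adjusted p = 6.5e-05).

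AURKB, the kinase of the complex, differed more between the clofarabine libraries. It stood at 32.8 CPM in C0 and 39.4 CPM in C1, against 48.3 CPM in V0 and 48.7 CPM in V1. The DMSO libraries were nearly equal, while C1 was closer to them than C0 was. The log2 fold change was −0.41 (SE 0.10, 95% interval −0.63 to −0.20, edgeR adjusted p = 0.0291). Without C0 it was −0.30 (edgeR adjusted p = 0.107) and without C1 −0.57 (edgeR adjusted p = 4.91e-04), while the call was also lost without V1 (edgeR adjusted p = 0.128) and with DESeq2 (adjusted p = 0.107). Once a trend of each library on transcript length was removed, the log2 fold change was −0.45 (edgeR adjusted p = 7.19e-04). Over the 13 alternatives the adjusted p of AURKB lay between 2.55e-04 and 0.143, and the part of transcript length in the gap between C0 and C1 was not tested.

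BIRC5, which encodes survivin, a subunit of the complex that also acts as an inhibitor of apoptosis, had the smallest change of the members that fell. Its level was 190.0 CPM in C0 and 200.2 CPM in C1, against 228 CPM in V0 and 238 CPM in V1. The groups did not overlap, and the clofarabine mean was 83.7% of the DMSO mean. The log2 fold change was −0.26 (SE 0.066, 95% interval −0.39 to −0.12, edgeR adjusted p = 0.0367). The call was lost without V0 (adjusted p = 0.132), without V1 (adjusted p = 0.459) and with DESeq2 (adjusted p = 0.0676), over a range of 7.59e-04 to 0.459 for the 13 alternatives. The 95% interval of BIRC5 does not meet those of CDCA8 and INCENP, but it overlaps that of AURKB.

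Set against its partners in the same library, AURKB lay higher relative to CDCA8 and INCENP in the clofarabine libraries. The log2 ratio of AURKB to CDCA8 was −1.47 in C0 and −1.22 in C1, against −1.64 in V0 and −1.71 in V1. That of AURKB to INCENP was −0.21 in C0 and −0.0016 in C1, against −0.31 in V0 and −0.38 in V1. The ratio to BIRC5 went the other way, at −2.54 in C0 and −2.34 in C1, against −2.24 in V0 and −2.29 in V1. C0 and C1 differed by 0.26, 0.21 and 0.19 in the ratios to CDCA8, INCENP and BIRC5, and the differences between the groups, 0.33, 0.24 and −0.17 in that order, were of about that size. The log2 ratio of AURKA to AURKB was 1.83 in C0 and 1.54 in C1, against 2.19 in V0 and 2.13 in V1, and that of PLK1 to BORA was 3.63 and 3.53 in clofarabine, against 3.85 and 3.82 in DMSO.

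AURKAIP1 was the member without a detectable change. It stood at 209.8 CPM in C0 and 231 CPM in C1, against 206 CPM in V0 and 232 CPM in V1. The groups overlapped, and the log2 fold change was 0.011 (SE 0.072, 95% interval −0.14 to 0.16, edgeR adjusted p = 0.973). Its sign was not stable, being negative with libraries scaled by size alone (−0.025), with the length trend removed (−0.064), on both FPKM scales, without C1 and without V0. The interval of AURKAIP1 does not meet that of any member called as lower except BIRC5, with which it shares the stretch between −0.14 and −0.12.

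**Figure D3:**
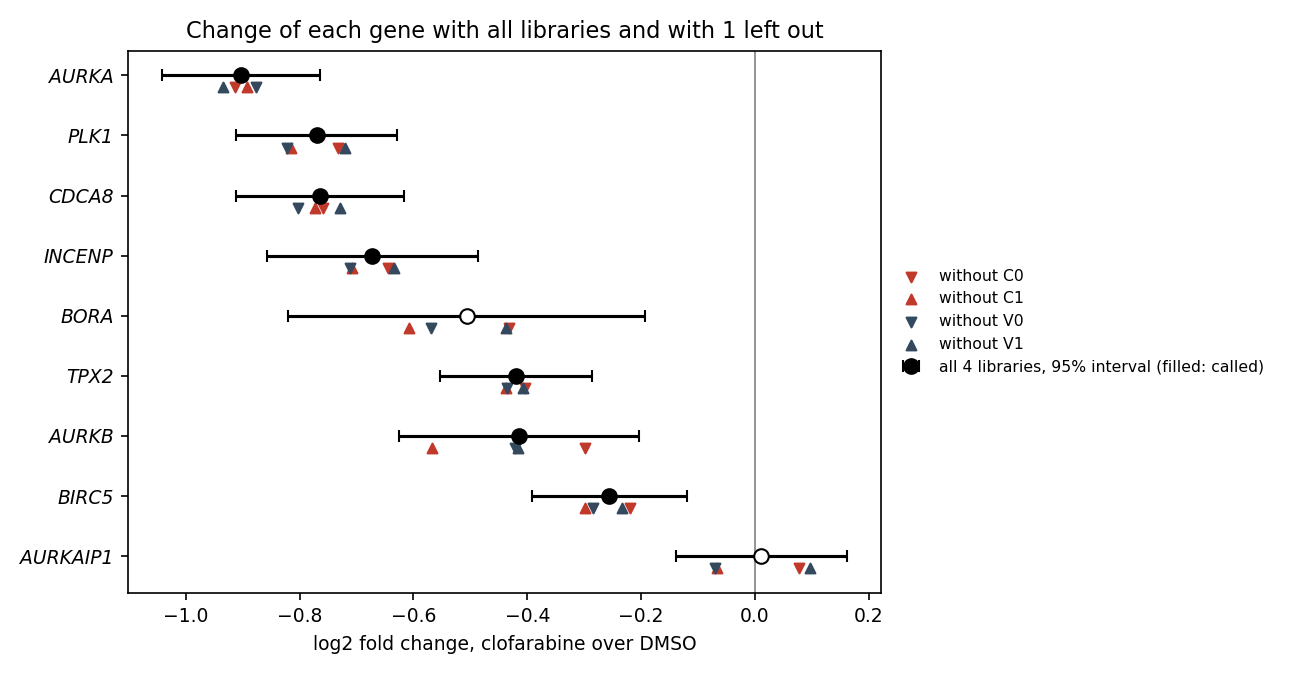
Log2 fold change of each member, clofarabine over DMSO, with all 4 libraries (circle with 95% interval, filled where called) and with 1 library left out (triangles, red for a clofarabine and dark blue for a DMSO library). The changes run from −0.90 in AURKA to 0.011 in AURKAIP1, and AURKB moves most with the choice of clofarabine library, between −0.57 and −0.30.

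Levels of different genes were compared in the authors' FPKM, a level scaled by both transcript length and library size. In clofarabine the order of mean levels was AURKAIP1 at 323 FPKM, TPX2 at 83.9, BIRC5 at 78.1, PLK1 at 68.8, AURKA at 54.2, CDCA8 at 39.6, AURKB at 32.7, INCENP at 9.56 and BORA at 4.40 FPKM, and the library ranges of neighbours did not overlap. In DMSO it was AURKAIP1 at 330.2 FPKM, PLK1 at 117, TPX2 at 112, AURKA at 102, BIRC5 at 93.3, CDCA8 at 67.6, AURKB at 44.3, INCENP at 15.2 and BORA at 6.29 FPKM. Of the neighbours in DMSO the ranges of PLK1 and TPX2 overlapped, so that their order is not set. In clofarabine, TPX2 and BIRC5, which fell by less, stood above PLK1 and AURKA. TPX2 stood above AURKA in DMSO as well, while BIRC5 stood below PLK1 and AURKA there. Within the passenger complex the order BIRC5, CDCA8, AURKB and INCENP was the same in both groups.

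**Figure D4:**
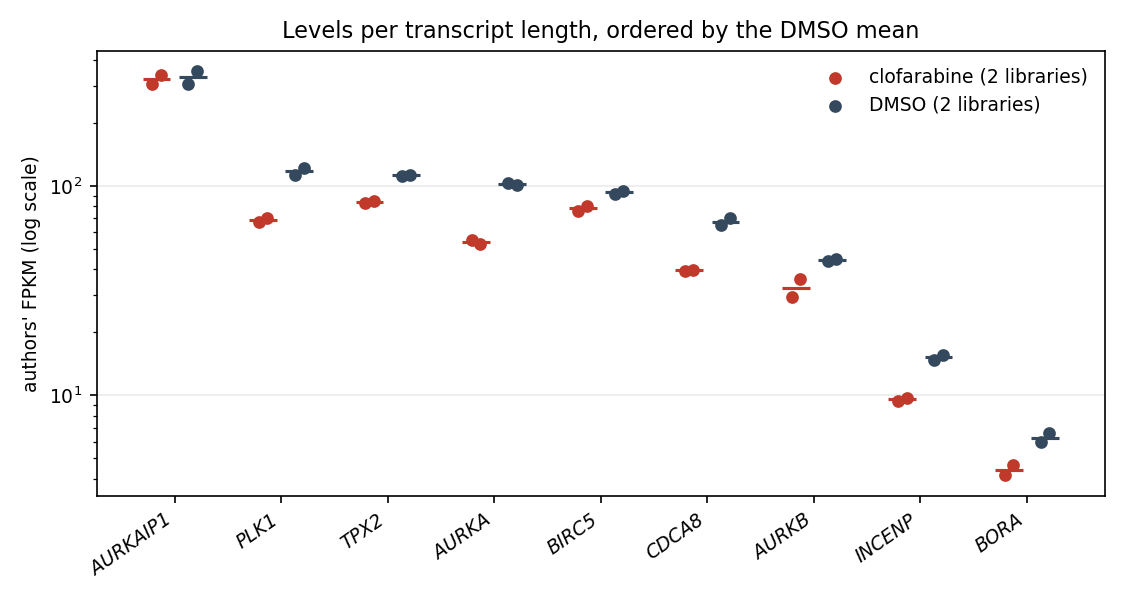
Levels of the 9 genes per transcript length in each library, in the authors' FPKM on a log axis, with clofarabine libraries in red at the left and DMSO libraries in dark blue at the right of each pair and a line at each mean. Genes run from the highest to the lowest DMSO mean, and in clofarabine TPX2 (83.9 FPKM) and BIRC5 (78.1 FPKM) lie above PLK1 (68.8 FPKM) and AURKA (54.2 FPKM).

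The kinase relatives of the members were few. Of AURKC, PLK2, PLK3, PLK4 and PLK5, 3 could be tested and none was called by edgeR at an adjusted p under 0.05. That rule called 1.03% of all tested genes as lower and 1.54% as higher, so that 0 calls among 3 genes says little. DESeq2 and the other alternatives also called none, and 0 had an unadjusted edgeR p under 0.05. AURKC, chosen after its values were seen, had between 12 and 30 fragments per library and a log2 fold change of −0.16 (SE 0.49). PLK3, a stress-responsive Polo-like kinase, had the smallest p, at 5.95 and 7.49 CPM in clofarabine and 7.42 and 8.74 CPM in DMSO (log2 fold change −0.26, SE 0.21, edgeR adjusted p = 0.663). PLK4, the kinase of centriole duplication, chosen after its value was seen, had a log2 fold change of −0.11 (SE 0.10). Its clofarabine libraries lay below its DMSO libraries, which held for 21.3% of all tested genes. PLK2, likewise chosen after its values were seen, was at 0 in all libraries.

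Among 20 tested regulators and substrates of Aurora A and PLK1, 6 fell, none rose and 14 were not called, beside 1.03% of all tested genes called as lower and 1.54% as higher. The median log2 fold change of the list was −0.21. The list was chosen with earlier results of these data known, so its counts are a description only. CDC20, the activator of the anaphase-promoting complex that ends mitosis, stood at 111 and 122 CPM in clofarabine and 194 and 196 CPM in DMSO (log2 fold change −0.75, SE 0.070, edgeR adjusted p = 5.96e-07). CCNB1, cyclin B1, the partner of CDK1, stood at 248 and 257 CPM in clofarabine and 397 and 401 CPM in DMSO (−0.66, SE 0.064, edgeR adjusted p = 8.46e-07). TACC3, which Aurora A phosphorylates to stabilise spindle microtubules, fell by 0.52 on the log2 scale (edgeR adjusted p = 1.1e-04), and WEE1, the CDK1 inhibitor kinase that PLK1 marks for degradation, by 0.41 (edgeR adjusted p = 0.00231). Chosen after their values were seen, CDK1 itself had a log2 fold change of −0.084 (SE 0.067), PKMYT1, the other inhibitory kinase of CDK1, one of −0.0056 (SE 0.076), and FBXO5, an inhibitor of the anaphase-promoting complex that PLK1 helps to destroy, one of 0.11 (SE 0.080), and none of these was called. On the log2(FPKM + 1) scale 3 genes of this list were called, beside 0.315% of all tested genes called as lower.

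Among 16 tested genes that recruit or carry the passenger complex, are substrates of Aurora B or act with it in cytokinesis, 9 fell, none rose and 7 were not called, again beside 1.03% of all tested genes called as lower. Their median log2 fold change was −0.38. This list too was chosen with earlier results of these data known, so its counts are a description only. KIF20A, the kinesin that carries the complex to the spindle midzone, stood at 28.4 and 34.0 CPM in clofarabine and 82.0 and 82.2 CPM in DMSO, at 38.0% of the DMSO mean (log2 fold change −1.38, SE 0.094, edgeR adjusted p = 1.06e-08). CENPA, the centromeric histone H3 variant, stood at 15.1 and 15.7 CPM in clofarabine and 43.2 and 41.3 CPM in DMSO (−1.45, SE 0.12, edgeR adjusted p = 6.24e-08). KIF23 and RACGAP1, which together form the centralspindlin complex of the midzone, had log2 fold changes of −0.95 (SE 0.092, edgeR adjusted p = 8.46e-07) and −0.64 (SE 0.069, edgeR adjusted p = 3.54e-06). CENPA, KIF20A and KIF23 thus had log2 fold changes below the −0.90 of AURKA, the lowest of the members. The 95% interval of KIF23 overlaps that of AURKA, while those of CENPA and KIF20A do not. Of the factors that place the complex at centromeres, BUB1, whose histone mark recruits it, fell (−0.34, edgeR adjusted p = 0.00561), while GSG2, the haspin kinase that makes the other mark, stood at 0.16 (SE 0.13) and was not called. In the same list TTK fell (−0.46, edgeR adjusted p = 0.00262). SGOL1 at −0.22 (SE 0.098) and SGOL2 at −0.36 (SE 0.13) were not called. BUB1, GSG2, TTK, SGOL1 and SGOL2 were chosen after their values were seen. On the log2(FPKM + 1) scale 5 genes of this list were called, beside 0.315% of all tested genes called as lower.

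**Figure D5:**
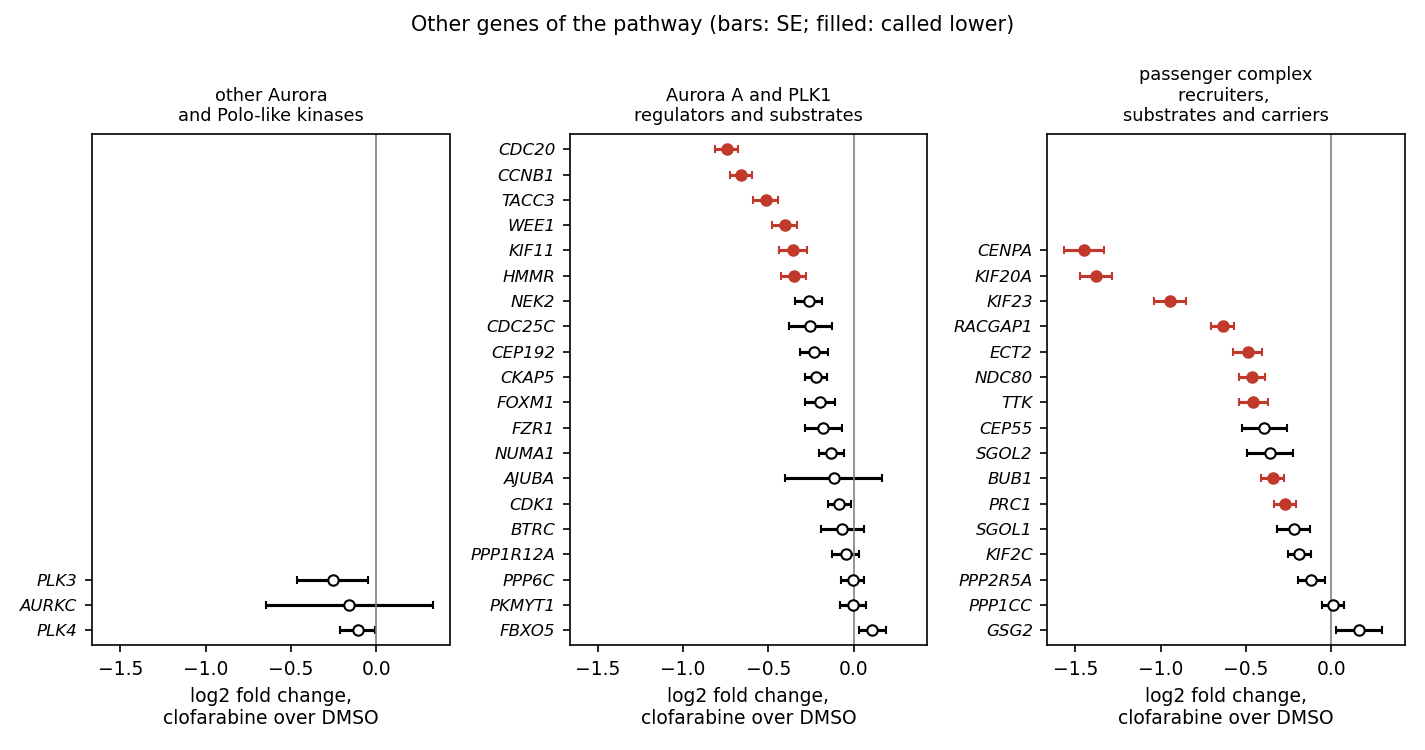
Log2 fold change, clofarabine over DMSO, with SE for the tested genes of 3 lists around the members, filled red where called as lower. Called falls number 0 of 3 other Aurora and Polo-like kinases, 6 of 20 regulators and substrates of Aurora A and PLK1 and 9 of 16 genes around the passenger complex, and the lowest are CENPA at −1.45 and KIF20A at −1.38.

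The genes whose pattern over the 4 libraries was most like that of AURKA were sought among 8481 tested genes with a mean of at least 10 CPM. Likeness was the root mean square difference of log2 CPM, each gene centred on its own DMSO mean. The closest were CDCA2 (0.057), which targets protein phosphatase 1 to chromatin, KIF23 (0.061), FAM72D (0.072), CCNF (0.075), which encodes cyclin F, and PSRC1 (0.093), a spindle protein. FAM72D has near-identical copies, so its share of fragments is uncertain. CDCA2 stood at 43.5 and 42.8 CPM in clofarabine and 77.1 and 83.2 CPM in DMSO (log2 fold change −0.90, SE 0.084, edgeR adjusted p = 5.96e-07). With 4 libraries in 2 groups this likeness reflects mainly the size of the fall.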

How the data were processed

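Total RNA of 4 K562 samples was made into directional libraries, per the labels' protocols. The submitters' processing notes name cutadapt 1.5, TopHat2 2.0.13, Cuffdiff 2.2.1 and the build hg19. Which annotation and strand setting were used is not given in these sources. Per the file headers, the authors deposited estimated counts per gene, condition and library, with scaled fragments (a signal equal to the counts times 1 factor per library, used here with FPKM only to infer relative transcript length) and FPKM.

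Estimated counts were rounded, filtered with filterByExpr (minimum count 10), scaled by TMM and tested with edgeR 4.0.16 in R 4.3.3 (quasi-likelihood, group only, Benjamini-Hochberg). SE was obtained from the log2 fold change and the F statistic, and intervals use edgeR's degrees of freedom. On counts simulated with 1 common dispersion for all genes, the test found 92 of 100 genes changed by 2-fold and 77 of 100 changed by 1.5-fold. It also made 5 false calls. Spread that differs by gene and the length trend were not simulated, so these shares need not hold for the real libraries. Libraries of a group differed beyond sampling noise (chi-square per degree of freedom 6.55 and 2.73), so all 4 were kept.

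Alternatives were DESeq2 1.42.0, limma 3.58.1 (voom, and log2 FPKM with a pseudocount of 1 or 0.1), other scalings, no filter, an offset for transcript length (loess, span 0.3), a replicate block and leaving out each library. The members and lists were chosen with earlier results of these data known. Named are the members, up to 4 called genes per list and direction by smallest p (where none was called, the gene of smallest p) and the 5 genes most like AURKA. Markers and genes that overlap or resemble a member are also named, and other genes are said in the text to be chosen after their values were seen. Protein sequences were not used here, and 2 genes of the marker lists are not reported here.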

Additional observations from a re-analysis of the deposited data

How the results depend on the processing

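AURKA, PLK1, CDCA8, INCENP and TPX2 were called as lower under all 13 alternatives. For AURKB the log2 fold change was −0.42 with DESeq2, −0.43 on log2(FPKM + 1) and −0.44 on log2(FPKM + 0.1), none called, and between −0.57 and −0.30 with a library left out. For BIRC5 the values on the same settings were −0.26, −0.26 and −0.26, none called, and between −0.30 and −0.22. BORA became called with library size only (−0.55), no filter (−0.51), the length trend removed (−0.50) and the replicate block (−0.51). AURKAIP1 turned negative with library size only (−0.025), on both FPKM scales (−0.030 and −0.030) and with the length trend removed (−0.064), and lay between −0.071 and 0.097 with a library left out. The cause of these changes was not tested.

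Over all genes, 302 were called, against 478 with no filter, 168 with DESeq2, 56 on log2(FPKM + 1), 72 on log2(FPKM + 0.1), 519 with the length trend removed, and 130 (without V1) to 636 (without C0) with a library left out. With library size only, 170 rose and 200 fell in place of 181 and 121. On both FPKM scales 3 of the regulators and substrates and 5 of the genes around the passenger complex were called. With the replicate number as a block 796 genes were called. Same-numbered libraries did not deviate together over all genes (r = −0.0038 over 11761 genes). A correlation over all genes cannot show whether some genes share a pairing, and the labels state no pairing. With a library left out, the lone sample is assumed to vary like the other group. BORA, with between 134 and 285 fragments per library, had the widest error of the members.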
